A study of Mus musculus with 12 samples.

Results

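The T-cell receptor α segments described here are the TRAV and TRAJ gene segments used by CD8 T cells from the pancreatic islets of NOD mice that did not bind the IGRP tetramer. Every segment was taken that appeared in a barcode with exactly 1 TRA and 1 TRB contig in either tetramer-negative islet scTCR-seq library. These were 110 segments, 68 TRAV and 42 TRAJ, of the 113 named on any TRA contig of the 6 scTCR-seq libraries. The study paired scTCR-seq with scRNA-seq on tetramer-positive and tetramer-negative islet cells and on tetramer-positive spleen cells. It was run as 2 rounds, each on a pool of 10 female NOD mice aged 10 to 15 wk. Cells were sorted with a Kd tetramer loaded with NRP-V7, a mimotope of the islet antigen IGRP, so a tetramer-negative cell may still be specific for any other islet antigen or for none. NOD mice develop autoimmune diabetes spontaneously. Because the mice were pooled, a clone could not be assigned to an animal, and each round gave 1 library of each kind.

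The α chain is assembled in the thymus by joining a TRAV segment to a TRAJ segment, with bases trimmed and added at the junction, and the joined stretch encodes CDR3α. The Trav and Traj segments lie on the same chromosome, the Trav segments include duplicated copies with nearly the same sequence, and a locus can rearrange again, which moves joining towards more distant segments on both sides. Some segments mark particular T cells, such as the invariant α chains of NKT and MAIT cells, and others recur in receptors for a single peptide.

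In Round 1, contigs were listed for 5550 barcodes, of which 3235 (58.3%) had exactly 1 TRA and 1 TRB contig. In Round 2 these numbers were 8495 and 5875 (69.2%). A further 1675 barcodes of Round 1 (30.2%) and 1483 of Round 2 (17.5%) had TRB contigs only, so barcodes without an α contig were more frequent in Round 1. The median TRA contig of a paired cell rested on 3 UMIs in Round 1 and 4 in Round 2. TRA contigs held 29322122 reads and 18241 UMIs in Round 1, and 11521610 reads and 40217 UMIs in Round 2. The study sequenced the rounds with different read lengths, and pooled the scRNA-seq and scTCR-seq libraries only in Round 2. Differences between rounds therefore cannot be told apart from differences in sequencing. Cells of a library with identical CDR3 nucleotide sequences on both chains were taken as a clone. Round 1 held 1703 clones, 1452 of 1 cell, 93 of 2 cells and 158 of 3 or more cells, called expanded here. Round 2 held 3467 clones, 3043 of 1 cell, 185 of 2 cells and 239 expanded. The 2 libraries had 55 barcodes in common. Within a round they shared 8 and 16 barcodes with the tetramer-positive islet library and 16 and 22 with the spleen library, and in 0 of these did the barcode carry the same receptor in both.

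The label of CD8 T cells held in both classes of clone. Summed over the 4 CD8 T-cell markers Cd3e, Cd8a, Cd8b1 and Trac, cells in clones of 1 cell had 2102 CPM (UMIs of the list over all UMIs of the class, scaled to 1e6) in Round 1 and 1902 in Round 2, and cells in expanded clones had 3269 and 2908. Cd4 was at 0 in both classes of Round 1, with 5 and 1 UMIs in the classes of Round 2. Among markers of NK and invariant NKT cells, Ncr1 and Zbtb16 summed to 4 UMIs or fewer in every class.

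Expanded clones differed from clones of 1 cell in the use of 3 α segments past the threshold. TRAV9-1 and TRAJ18 were more frequent among expanded clones, and TRAV3-3 was less frequent. Each clone was counted once whatever its size, and clones were compared only with clones of their own round. Of the 110 segments, 102 were used by at least 10 clones of the 2 classes and were tested. By a two-sided exact test stratified by round, with Benjamini-Hochberg adjustment over the 102, 3 segments were called (2.94% of those tested), 2 higher (1.96%) and 1 lower (0.98%), and 12 had an unadjusted p under 0.05. A segment was called where the adjusted p was under 0.05 and the difference had the same sign in both rounds. The edgeR quasi-likelihood test on the clone counts, with the round as a block, called the same 3 segments. The calls needed both rounds, since Fisher's exact test called 0 segments in Round 1 alone and 0 in Round 2 alone. The odds ratios of single rounds were close to those of both, at 2.93 and 2.42 for TRAV9-1 and 2.39 and 2.13 for TRAJ18, and in Round 2 TRAV3-3 stood at 0.199. With expanded clones set at 5 or more cells, 0 segments were called, while the odds ratios kept their direction at 2.25 (95% CI 1.22 to 4.14) for TRAV9-1, 1.96 (1.07 to 3.59) for TRAJ18 and 0.243 (0.0597 to 0.991) for TRAV3-3. All 3 calls were kept under 12 of 18 alternative settings, 3 of which were chosen after the data were seen. Clones of a library come from 1 pool of mice, so these p-values measure the spread among clones and not among animals.

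**Figure D1:**
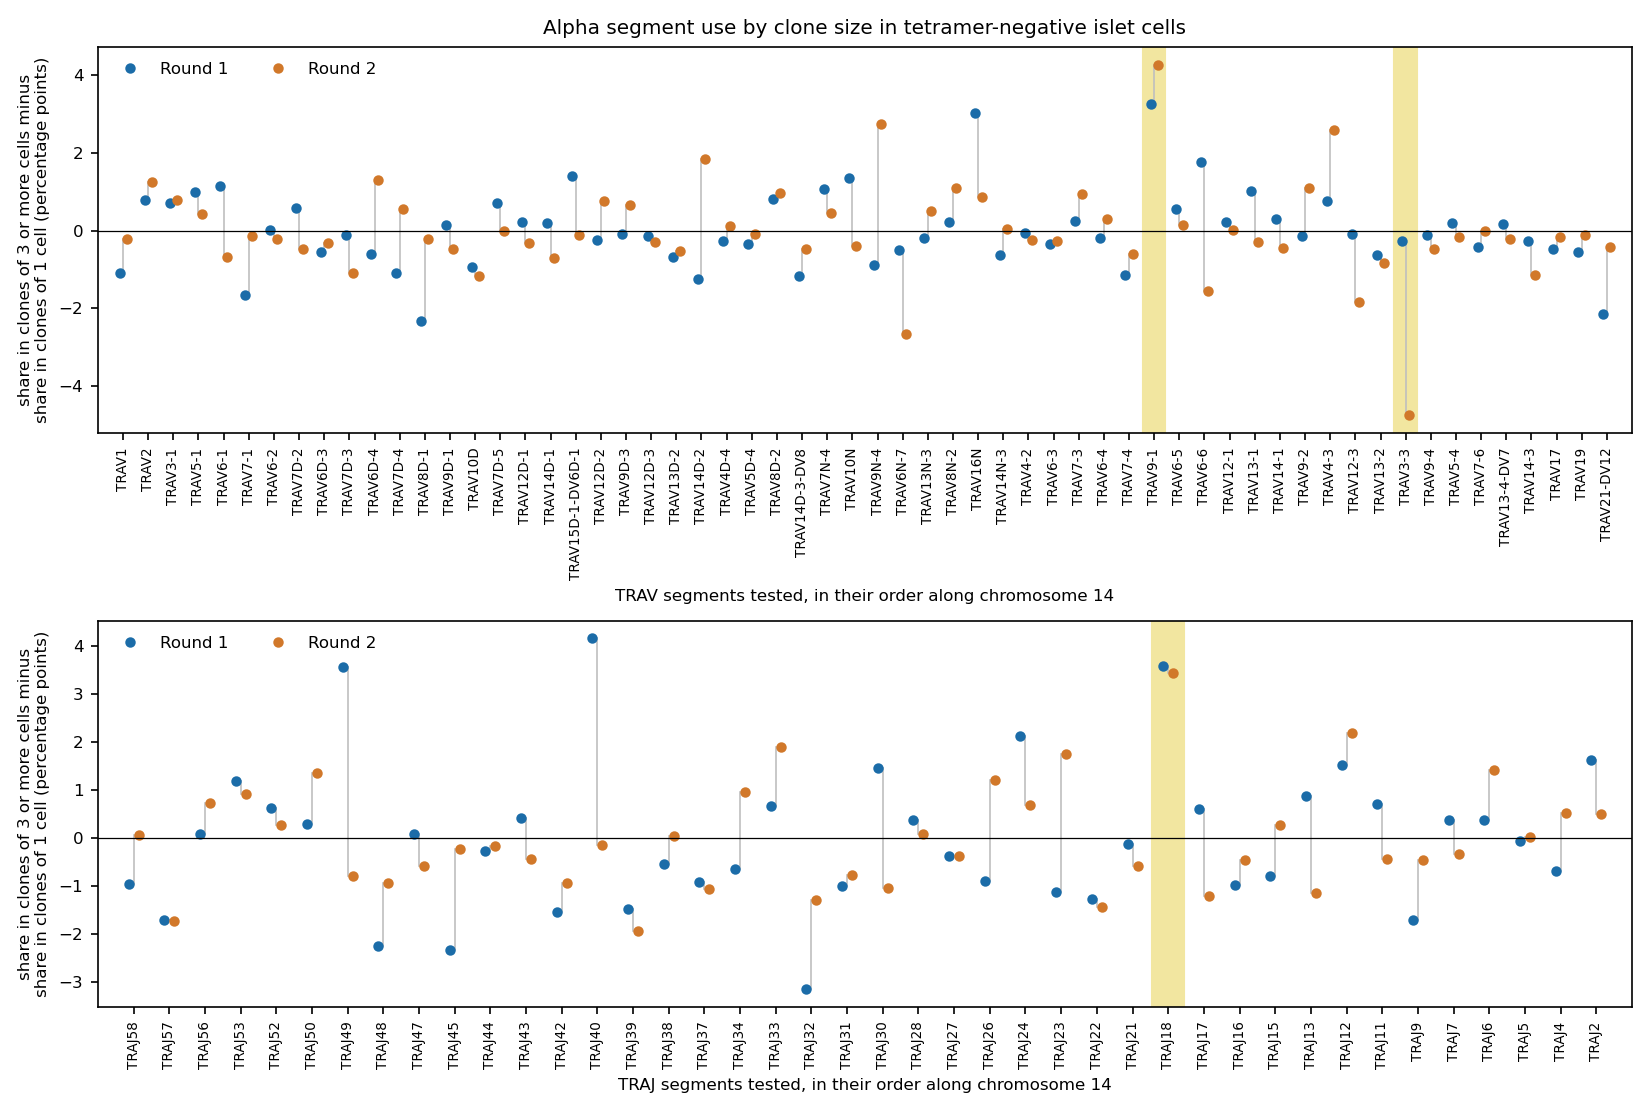
Difference in the share of clones with each segment, expanded clones minus clones of 1 cell, in percentage points, for the 102 segments tested, in their order along chromosome 14. Points are the 2 rounds, grey lines join them, and the shaded segments are the 3 called, TRAV9-1, TRAV3-3 and TRAJ18.

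TRAV9-1 (Trav9-1, ENSMUSG00000096900, chr14:53488045-53488567, plus strand, GRCm38) was used by 8 of 158 expanded clones of Round 1 (5.06%) and by 26 of 1452 clones of 1 cell (1.79%). In Round 2 it was used by 18 of 239 expanded clones (7.53%) and 99 of 3043 clones of 1 cell (3.25%). Expanded clones were thus the higher class in both rounds, with an odds ratio of 2.56 (95% CI 1.65 to 3.96) and an adjusted p of 0.0145 by the stratified exact test. Clones of 2 cells gave 3.23% in Round 1 and 4.32% in Round 2. Among larger clones the shares rest on few TRAV9-1 clones in each round. With expanded clones set at 5 or more cells, the exact test of equal odds ratios in the 2 rounds gave p = 0.722. In Round 1, TRAV9-1 was found in 7 of 96 clones of 3 to 5 cells but in 1 of 62 clones of 6 or more, and in 0 of 33 clones of 10 or more, which allows a share of up to 10.6% (exact 95% upper limit). In Round 2 it was found in 9 of 132 clones of 3 to 5 cells and 9 of 107 clones of 6 or more. These size bands were chosen after the data were seen and were not tested.

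The 26 expanded TRAV9-1 clones had 26 different α junctions and joined TRAV9-1 to 15 TRAJ segments. TRAJ53 was the most frequent, with 5 clones (19.2%, 95% CI 6.55 to 39.4), against 10 of the 371 other expanded clones (2.70%). TRAJ30 followed with 4 clones (15.4%), against 7 of 371 (1.89%), and it was used by 11 of 125 TRAV9-1 clones of 1 cell (8.80%). Counted together with the copy TRAV9D-1, clones of 1 cell used TRAJ49 more often than TRAJ30. The counts were 7 against 3 in Round 1 and 10 against 9 in Round 2. The 26 expanded TRAV9-1 clones were paired with 11 TRBV segments. TRBV3 and TRBV13-1 each had 5 clones, and 3 of the 5 TRBV3 clones were joined to TRAJ53. The partner segments were singled out after their values were seen. The largest TRAV9-1 clone of each round joined TRAV9-1 to TRAJ53 and used TRBV3, with 9 cells in Round 1 and 33 in Round 2, and a clone of 21 cells in Round 2 did the same. Their α CDR3 sequences, 1 from the pool of Round 1 and 2 from that of Round 2, are printed because they have the same V, J and TRBV segments and the same length. Capitals mark the bases that match germline TRAJ53.
Round 1, 9 cells: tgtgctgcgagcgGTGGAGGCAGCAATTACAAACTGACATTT
Round 2, 33 cells: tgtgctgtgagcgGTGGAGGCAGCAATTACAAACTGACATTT
Round 2, 21 cells: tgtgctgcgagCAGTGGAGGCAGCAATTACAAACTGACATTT

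TRAJ18 (Traj18, ENSMUSG00000076911, chr14:54200777-54200842, plus strand, GRCm38) is best known as the joining segment of the invariant NKT-cell receptor, where it is paired with TRAV11. It was used by 10 of 158 expanded clones (6.33%) and 40 of 1452 clones of 1 cell (2.75%) in Round 1. In Round 2 it was used by 16 of 239 (6.69%) and 99 of 3043 (3.25%). Expanded clones were again higher in both rounds, by 3.57 and 3.44 percentage points, with an odds ratio of 2.22 (95% CI 1.44 to 3.43) and an adjusted p of 0.0235 by the stratified exact test. Clones of 2 cells already stood at 5.38% and 4.32%. Clones of 6 or more cells used it in 4.84% and 5.61%. Counted by cells, TRAJ18 held 10.8% of the paired cells of Round 1 and 4.22% of those of Round 2, because a single TRAV6N-7 clone of Round 1 had 252 of its 349 cells.

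The expanded TRAJ18 clones did not carry the invariant NKT receptor. TRAV11 was found in 0 clones of Round 1 and 3 of Round 2, and 1 of these, a clone of 1 cell, used TRAJ18. The 26 expanded TRAJ18 clones used 14 groups of TRAV copies and 26 different junctions. In contrast to the spread of V segments, 11 of the 26 used TRBV13-1 (42.3%, 95% CI 23.4 to 63.1), against 34 of the 371 other expanded clones (9.16%). Among TRAJ18 clones of 1 cell the share was 18 of 139 (12.9%). These shares join both rounds. Expanded TRAJ18 clones used TRBV13-1 in 3 of 10 in Round 1 (95% CI 6.67 to 65.2) and 8 of 16 in Round 2 (95% CI 24.7 to 75.3). Those of 1 cell used it in 5 of 40 and 13 of 99. The pairing was concentrated in the TRAV4 family. All 7 expanded TRAJ18 clones with a TRAV4 segment used TRBV13-1, as did 6 of 9 such clones of 1 cell. Of the 19 expanded TRAJ18 clones with another TRAV, 4 did so (21.1%), 0 of 7 in Round 1 and 4 of 12 in Round 2. Expanded clones with a TRAV4 segment and another TRAJ used TRBV13-1 in 4 of 9 (44.4%), and such clones of 1 cell in 11 of 92 (11.96%). The study names TRAV4D-3, a copy of TRAV4-3, together with TRAJ18 and TRBV13-1 in a set of tetramer-negative clones. It describes that set by shared CDR3 motifs on both chains and by TRBJ1-4 or TRBJ1-1. The expanded TRAV4-3 clones of 4 and 3 cells with TRAJ18 in Round 2 used TRBJ2-7 and TRBJ2-4. Clones here were not matched to the set of the study. TRAV4D-3 was listed for 0 paired cells in both rounds, where TRAV4-3 was the only name of this copy group. TRBV13-1 and the TRAV4 family were singled out after their values were seen, and these shares were not tested. With TRAV4 clones left out of both classes, an alternative also chosen after seeing the data, TRAJ18 differed by 2.05 percentage points with an adjusted p of 0.437. With TRAV3-3 clones left out it differed by 3.09 percentage points with an adjusted p of 0.165. Over the 18 alternatives its adjusted p ranged from 0.00882 to 0.733.

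The germline segment and the α CDR3 of 5 of the 7 expanded TRAV4 clones with TRAJ18 and TRBV13-1 are printed as examples of how much of TRAJ18 was kept. Not printed are a TRAV4-2 clone of 3 cells in Round 1 and a TRAV4-3 clone of 4 cells in Round 2, which kept 31 and 30 bases. In the germline sequence capitals mark the stretch that the median TRAJ18 clone kept, 30 bases up to the end of CDR3, and in the clones they mark the bases that match it.
Germline TRAJ18: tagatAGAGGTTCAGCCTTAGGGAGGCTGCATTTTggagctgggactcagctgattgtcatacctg
TRAV4-3, Round 1, 5 cells: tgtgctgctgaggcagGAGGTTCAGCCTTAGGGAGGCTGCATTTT
TRAV4-3, Round 1, 4 cells: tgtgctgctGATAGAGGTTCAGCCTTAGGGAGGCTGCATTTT
TRAV4D-4, Round 2, 18 cells: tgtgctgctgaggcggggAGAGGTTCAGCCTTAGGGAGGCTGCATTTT
TRAV4-3, Round 2, 9 cells: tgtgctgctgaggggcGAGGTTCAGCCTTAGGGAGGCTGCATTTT
TRAV4-3, Round 2, 3 cells: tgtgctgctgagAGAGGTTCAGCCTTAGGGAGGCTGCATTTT

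The junctions of TRAJ18 clones were longer on average than those of all clones in both size classes, and lengths were not tested. In Round 1 the mean CDR3α was 45 nt (SD 2.83) in expanded TRAJ18 clones and 43.65 nt (SD 3.53) in those of 1 cell, and in Round 2 it was 43.9 nt (SD 4.22) and 43.6 nt (SD 3.67). Expanded clones kept a mean of 30.5 and 30.1 bases of TRAJ18, and clones of 1 cell kept 30.4 and 30.2.

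**Figure D2:**
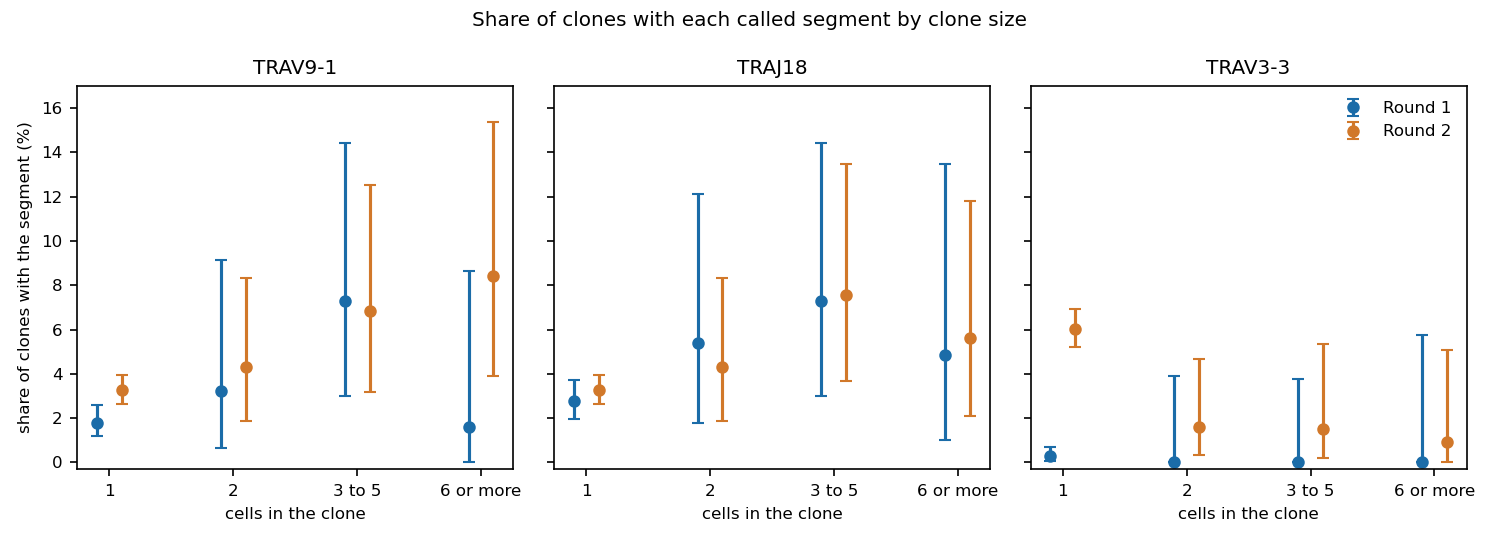
Share of clones, in percent, that used TRAV9-1, TRAJ18 and TRAV3-3, by the number of cells in the clone and by round. Points are shares, bars are exact 95% binomial intervals, which cover counting error only, and TRAV3-3 stands at 6.01% in clones of 1 cell of Round 2 and at 0.275% in those of Round 1.

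TRAV3-3 (Trav3-3, ENSMUSG00000094828, chr14:53665929-53666506, plus strand, GRCm38) was the segment with the lower share in expanded clones, and its difference came from Round 2. There it was used by 3 of 239 expanded clones (1.26%) and 183 of 3043 clones of 1 cell (6.01%). In Round 1 it was used by 0 of 158 expanded clones and 4 of 1452 clones of 1 cell (0.275%), too few to show a difference. The odds ratio was 0.193 (95% CI 0.0612 to 0.608) and the adjusted p 0.0235 by the stratified exact test. The 3 expanded clones had 11, 5 and 3 cells, and the latter 2 used TRAJ18.

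The near absence of TRAV3-3 from Round 1 contigs was not matched by the scRNA-seq of the same round. Trav3-3 took 7.39% of all Trav UMIs in Round 1 (95% CI 6.99 to 7.81) and 7.44% in Round 2 (95% CI 7.11 to 7.78). The intervals of these UMI shares cover counting error only. Among cells with a TRB contig whose Trav UMIs, at least 2, were all Trav3-3, a TRA contig was listed for 11 of 79 in Round 1 (13.9%, 95% CI 7.16 to 23.5) and 136 of 154 in Round 2 (88.3%, 95% CI 82.2 to 92.9). The median over Trav groups with at least 30 such cells was 81.5% in Round 1, over 14 groups, and 96.1% in Round 2, over 25 groups. Trav3-3 was the lowest group in Round 1, and Trav2 was the lowest in Round 2 at 50%, after 46.9% in Round 1. For the Trav9-1 group the values were 69.2% and 88.4%. The reason for these gaps was not tested, and the rounds also differed in how they were sequenced.

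TRAV3-3 and TRAV9-1 could also be followed without any TRA contig. Cells were grouped by their β CDR3 alone, and the V segment of each β clone was read from its most abundant Trav group in scRNA-seq, a description chosen after the data were seen. In Round 1, Trav3-3 led in 110 of 1379 β clones of 1 cell (7.98%) and 14 of 206 of 3 or more cells (6.80%, 95% CI 3.77 to 11.1). In Round 2 it led in 229 of 2420 (9.46%) and 6 of 276 (2.17%, 95% CI 0.802 to 4.67). In Round 1 the share in large clones lay within the 95% interval of clones of 1 cell (6.60% to 9.53%), so no difference was shown there. In Round 2 it was lower in large clones, and the rounds were not compared by a test. Contig clones sized by β CDR3 had the opposite order in Round 1, 0.775% of expanded clones and 0.150% of clones of 1 cell, with 2 TRAV3-3 clones in each class. Trav9-1 led in 3.92% of β clones of 1 cell and 7.28% of those of 3 or more in Round 1, and in 3.06% and 7.25% in Round 2, the higher share in large clones in both rounds.

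**Figure D3:**
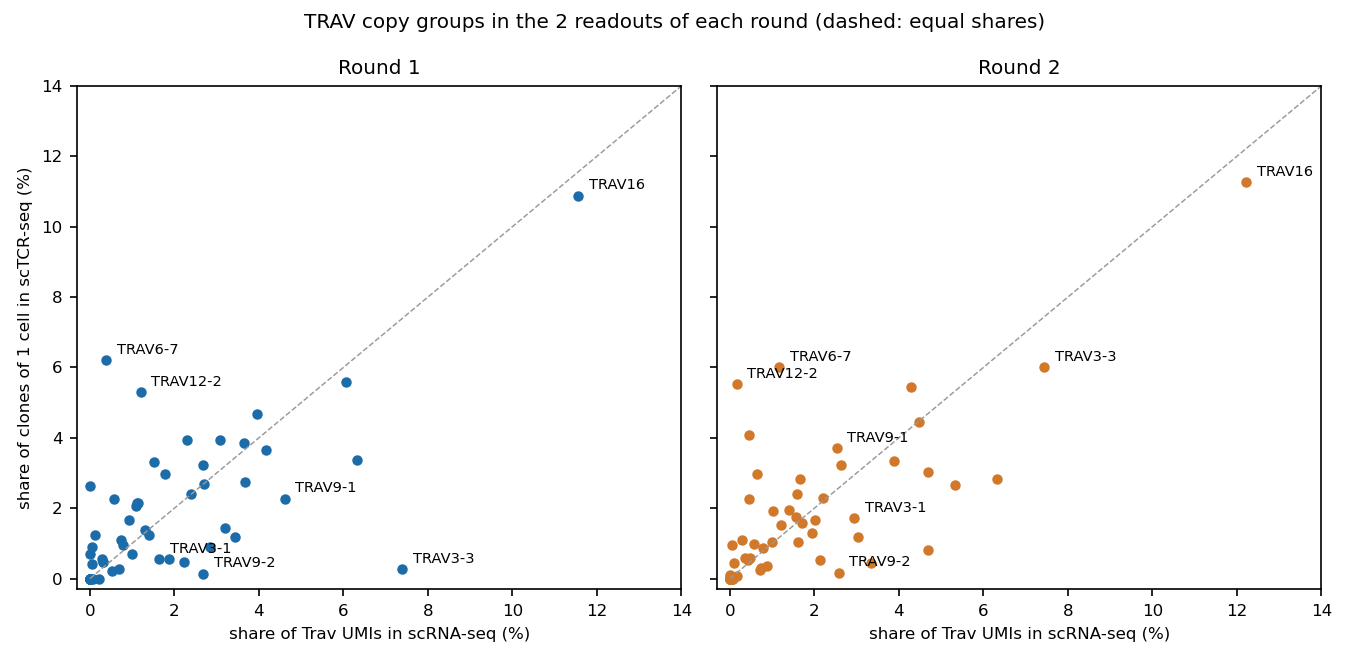
Share of clones of 1 cell in scTCR-seq against the share of Trav UMIs in scRNA-seq, both in percent, for each group of TRAV copies in each round. The dashed line marks equal shares, and TRAV3-3 lies at 7.39% of UMIs and 0.275% of clones in Round 1 and at 7.44% and 6.01% in Round 2.

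Clones of 1 cell also show which segments differed between the rounds. Exact 95% intervals of the 2 rounds did not overlap for 4 of 109 segments, TRAV3-3, TRAV9-1, TRAV4-3 and TRAV3-1, the last named after its values were seen. TRAV4-3 went from 2.41% in Round 1 to 1.18% in Round 2, although Trav4-3 took 2.39% and 3.04% of Trav UMIs. TRAV9-1 went from 1.79% to 3.25%, and its copy group from 2.27% to 3.71%. The Trav9-1 group nonetheless took 4.61% of Trav UMIs in Round 1 and 2.53% in Round 2. For Trav3-1 the UMI share rose like the clones, from 1.64% to 2.94%. These UMI shares are over all cells of a round and not only clones of 1 cell. Differences between the classes had the same direction in both rounds for 60 of 102 segments, 23 higher and 37 lower in expanded clones. An exact test of equal odds ratios in the 2 rounds gave 2 of 102 with an unadjusted p under 0.05 and 0 after adjustment.

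The segments most used by clones of 1 cell did not pass the test of clone size, apart from TRAV3-3. TRAV16N led the TRAV segments in both rounds, with 10.9% and 11.3% of clones of 1 cell and 13.9% and 12.1% of expanded clones (adjusted p = 0.769 by the exact test). TRAV6N-7 followed with 6.20% and 6.01%, and had 5.70% and 3.35% of expanded clones. TRAV12D-2 had 5.30% and 5.52% of clones of 1 cell and 5.06% and 6.28% of expanded clones, no clear difference. The rest of the 10 most used, TRAV6-6, TRAV13-1, TRAV5-4, TRAV13-2, TRAV8D-1 and TRAV6-5, lay between 2.59% and 4.00% as means of the rounds. Of the TRAJ segments, TRAJ49 was the most used, with 5.30% and 4.96%. By the mean of the rounds TRAJ32 was next, with 4.41% and 4.63%, although TRAJ26 stood above it in Round 1 at 4.68%. TRAJ26, TRAJ48, TRAJ37, TRAJ56, TRAJ45, TRAJ31, TRAJ40 and TRAJ50 had means of 3.38% to 4.03%. TRAJ segments were therefore used more evenly than TRAV segments.

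Some uncalled segments differed in a single round by as much as the called ones, and others changed direction between rounds. TRAJ40 had 7.59% of expanded clones and 3.44% of clones of 1 cell in Round 1, but 3.35% and 3.48% in Round 2. TRAJ49 had 8.86% against 5.30% in Round 1 and 4.18% against 4.96% in Round 2. TRAV9N-4 had the opposite order, with 0.633% against 1.52% in Round 1 and 3.77% against 1.02% in Round 2. Others kept 1 sign in both rounds without passing the adjusted threshold. TRAJ12 had 3.16% against 1.65% and 3.77% against 1.58% (adjusted p = 0.234, exact test). TRAV4-3 had 3.16% against 2.41% and 3.77% against 1.18%, and TRAV2 had 1.27% against 0.482% and 1.67% against 0.427%, both with the same adjusted p of 0.234. TRAJ24 had 3.16% against 1.03% and 1.67% against 0.986% (adjusted p = 0.380, exact test). On the lower side, TRAJ57 had 1.27% against 2.96% and 0.837% against 2.56% (adjusted p = 0.380, exact test), and TRAJ32 had 1.27% against 4.41% and 3.35% against 4.63% (adjusted p = 0.499, exact test). TRAJ39, TRAJ22, TRAJ48, TRAV6N-7, TRAV8D-1, TRAV10D and TRAV21-DV12 were also lower in both rounds and were not called. The median difference over the 102 segments was -0.0576 percentage points.

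Joining TRAV names that differ only by the letters D or N, which mark duplicated copies, left the V results as they were. Of 45 copy groups tested, 2 were called (4.44%), the TRAV9-1 group higher and TRAV3-3 lower, both with an adjusted p of 0.0109 by the stratified exact test. The TRAV9-1 group, which adds TRAV9D-1, had 5.70% of expanded clones and 2.27% of clones of 1 cell in Round 1, and 7.53% and 3.71% in Round 2. No call therefore turned on how the contigs were split between copies of TRAV9-1.

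No single combination of V and J segments that was tested was called. TRAV9-1 with TRAJ53, described above, was below the minimum of 10 clones and was not among the pairs tested. Of 100 pairs of a TRAV copy group and a TRAJ segment used by at least 10 clones, 0 passed the stratified exact test after adjustment, 9 had an unadjusted p under 0.05, and edgeR called 0 with 0 at an unadjusted p under 0.05. The smallest p belonged to TRAV4-3 with TRAJ18, found in 2 expanded clones and 3 clones of 1 cell in Round 1 and in 3 and 4 in Round 2 (adjusted p = 0.187, exact test). It was followed by the TRAV16 group with TRAJ49, with 5 expanded clones and 6 of 1 cell in Round 1 and 3 and 20 in Round 2 (adjusted p = 0.237, exact test). Diversity of pairs was wide, since the 158 expanded clones of Round 1 used 134 pairs and the 239 of Round 2 used 190.

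Joining to Traj segments far from the constant gene was slightly less common in expanded clones, without passing the test. TRAJ31 and higher numbers lie upstream, nearer to the Trav segments. They were used by 57.0% of expanded clones and 62.6% of clones of 1 cell in Round 1, and by 58.6% and 63.3% in Round 2. The differences of -5.64 and -4.68 percentage points gave p = 0.0512 by the stratified exact test (odds ratio 0.809, 95% CI 0.657 to 0.997). For this share of clones with an upstream TRAJ segment, pooling both rounds, with no replicate block, gave -5.11 percentage points with p = 0.0453 by Fisher's exact test. Without TRAJ18 clones, an alternative chosen after seeing the data, the difference was -3.09 percentage points (p = 0.257, exact test).

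CDR3α was on average slightly longer in expanded clones in both rounds. Its mean was 41.5 nt (SD 4.80 over clones) in expanded clones and 41.1 nt (SD 4.49) in clones of 1 cell of Round 1, and 42.0 nt (SD 4.4) and 41.2 nt (SD 4.46) in Round 2, with a median of 42 nt throughout. The differences were 0.445 nt (SE over clones 0.400) in Round 1 and 0.799 nt (SE 0.296) in Round 2, and they were not tested. Bases at the junction that matched neither germline V nor germline J averaged 4.54 nt in expanded clones and 4.97 nt in clones of 1 cell of Round 1. In Round 2 the averages were 5.26 and 5.08 nt, so the order changed between rounds. Clones of 5 TRAV segments with a poor germline match, 346 clones, were left out of these averages.

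A few α junctions recurred between the pools. Of 1652 α CDR3 nucleotide sequences in Round 1 and 3350 in Round 2, 85 were found in both (5.15% and 2.54%). Unmatched bases were averaged without the TRAV segments of poor germline match, as above. Sequences found in both rounds held a mean of 3.24, against 5.18 in those found in 1 round. Of these, 32.1% held none, against 9.86%. TRAJ18 was used by 6 of the 85 and TRAV9-1 by 3.

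The largest clones differed in their α segments from round to round. Those of Round 1 used TRAV6N-7 with TRAJ18 (252 cells), TRAV16N with TRAJ49 (104), TRAV10N with TRAJ21 (95), TRAV8D-2 with TRAJ32 (57) and TRAV6-6 with TRAJ53 (49). Those of Round 2 used TRAV5-1 with TRAJ15 (111 cells), TRAV14N-3 with TRAJ12 (96), TRAV9D-3 with TRAJ53 (82), TRAV12D-2 with TRAJ23 (73) and TRAV16N with TRAJ37 (61). TRAV16N and TRAJ53 were the segments that appeared in both lists. In cells these 5 clones made up 17.2% of the Round 1 total and 7.20% of the Round 2 total, and none of the 10 used TRAV9-1 or TRAV3-3. The α CDR3 of the leading clone of each round is shown with its germline J match in capitals. In Round 1, 33 of its 45 bases matched TRAJ18, and in Round 2, 24 of 45 matched TRAJ15.
Round 1, TRAV6N-7 with TRAJ18: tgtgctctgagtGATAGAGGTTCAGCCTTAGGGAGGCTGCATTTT
Round 2, TRAV5-1 with TRAJ15: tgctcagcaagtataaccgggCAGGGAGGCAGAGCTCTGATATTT

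Of the α segments that dominate tetramer-positive cells, TRAV16N was slightly more frequent in expanded tetramer-negative clones in both rounds without being called (13.9% against 10.9% and 12.1% against 11.3%), and TRAJ42 was less frequent in both rounds, also without being called (adjusted p = 0.769 by the exact test). TRAV16N with TRAJ42 was found in 9 clones of Round 1 and 17 of Round 2, 1 of them expanded in each round. TRAJ42 itself had 1.90% of expanded clones against 3.44% of clones of 1 cell in Round 1 and 2.09% against 3.02% in Round 2. Among expanded tetramer-positive islet clones, by contrast, TRAV16N was used by 26 of 26 in Round 1 and 37 of 37 in Round 2 and TRAJ42 by 24 of 26 and 35 of 37, while TRAV9-1, TRAV3-3 and TRAJ18 were each used by 0 of 26 and 0 of 37, which allows shares of up to 13.2% and 9.49% (exact 95% upper limits). In the tetramer-positive spleen these 3 segments were likewise found in 0 of 32 and 0 of 42 expanded clones, which allows shares of up to 10.9% and 8.41% (exact 95% upper limits). These limits lie above the shares in expanded tetramer-negative clones. The counts of 0 are also not free of the other segments, since each clone was given 1 TRAV and 1 TRAJ segment. TRAV16N was used by all these islet clones and by 31 of 32 and 40 of 42 of the spleen clones. Little or no room was thus left for TRAV9-1 or TRAV3-3, and the counts of 0 were not read as a separate contrast. Clones that were also found in a tetramer-positive library of their round numbered 13 and 10, and leaving them out kept all 3 calls.

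The α chains of other innate-like T cells were rare. TRAV1 with TRAJ33, the MAIT pair, was found in 3 clones of Round 1 and 0 of Round 2, with 0 of them expanded. TRAV1 alone was used by 16 and 32 clones of 1 cell. The name TRAV11D was listed for 0 paired cells in both rounds.

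V calls were checked against scRNA-seq of the same cells, and the count matrix held 99.1% of the paired cells for Round 1 and 98.3% for Round 2. A UMI of the called Trav group was present in 65.9% of cells in Round 1 and 66.1% in Round 2. In cells called with another segment the share, weighted by group, was 1.35% and 1.12%. For the TRAV9-1 group the shares were 92.3% against 3.0% in Round 1 and 62.0% against 0.838% in Round 2. TRAV3-3 was backed in 193 of 205 cells of Round 2 (94.1%), against 3.95% of other cells, and in 4 of 4 cells of Round 1. Other groups were backed in fewer cells, and they were singled out after their values were seen. TRAV6-6 was backed in 7.36% of cells against 5.62% of other cells in Round 1 and 1.57% against 0.913% in Round 2, so its calls were hardly supported by scRNA-seq. The TRAV9-3 group was backed in 0 of 70 cells of Round 1 (exact 95% upper limit 5.13%) and 19.8% of cells of Round 2, the TRAV6-7 group in 9.61% (0.0714% of other cells) and 39.6% (0.544%), and the TRAV12-2 group in 30.5% (1.12%) and 4.61% (0.0925%). The last 2 groups were thus far above other cells, unlike TRAV6-6. The Traj genes could not be checked this way, since they took 44 UMIs in all of Round 1 and 283 in Round 2.

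Cells of expanded clones and of clones of 1 cell were unlike in state as well as in number. Effector genes, which include the chemokine Ccl5 and the cytotoxic protease Gzmb, summed to 12150 CPM in expanded clones and 4819 CPM in clones of 1 cell in Round 1, and to 11822 and 4040 CPM in Round 2. Ccl5 alone made most of this, with 10440 against 4168 CPM in Round 1. Without Ccl5, individual members such as Cxcr6, a receptor of tissue-resident T cells, stood at 331 against 66.5 CPM in Round 1 and 433 against 67.1 CPM in Round 2. The inhibitory receptor Pdcd1 stood at 444 against 124 CPM and 422 against 97.6 CPM. Gzma was the exception among the 10 effector genes, with 97.6 against 140 CPM in Round 1 and 179 against 188 CPM in Round 2, and Prf1 barely differed.

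Some genes of resting and recirculating T cells went the other way. The chemokine receptor Ccr7 stood at 131 CPM in expanded clones and 789 CPM in clones of 1 cell of Round 1, and at 243 and 1564 CPM in Round 2. The transcription factor Klf2 stood at 136 against 646 CPM and 185 against 869 CPM, and the egress receptor S1pr1 at 34.9 against 238 CPM and 41.9 against 275 CPM. The cycling genes Mki67 and Top2a summed to 264 against 69.6 CPM and 259 against 39.3 CPM. These values have 1 library of each kind per round and were not tested.

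Depth and transcripts from marker lists of other cell types differed with clone size too. All were counted in barcodes with exactly 1 TRA and 1 TRB contig, so they do not count cells of other types. The median cell had 4895 UMIs in expanded clones and 3816 in clones of 1 cell of Round 1, and 4716 and 3739 in Round 2. Taken over clones rather than cells, the median of TRA UMIs per cell was 4.5 against 3 and 5.8 against 3. Exocrine genes summed to 46.0 against 68.8 CPM in Round 1 and 170 against 360 CPM in Round 2, with Ctrb1 or Prss2 the most abundant. The γδ T-cell list summed to 104 against 13.5 CPM and 62.3 against 9.58 CPM, mostly Tcrg-C4, with Trdc at 0 UMIs in expanded clones of Round 1 and 26 in those of Round 2. Myeloid genes, mostly Cd68, summed to 24.4 against 7.14 CPM and 27.5 against 7.98 CPM, and endocrine genes to 4.47 against 1.52 CPM and 3.85 against 1.36 CPM. The part of these differences in the segment results was not tested.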

How the data were processed

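scTCR-seq and scRNA-seq libraries came from cells sorted from pools of mice, and each round is a shared pool, which is where the pairing of libraries comes from. The contig tables and the UMI counts are those the authors deposited, made with Cell Ranger. The scRNA-seq matrix headers give version 5.0.1, whereas the paper states a later version. By the paper, scRNA-seq reads were aligned to mm10 and scTCR-seq reads to the GRCm38 V(D)J reference. Here, barcodes with exactly 1 TRA and 1 TRB contig were grouped into clones, each clone was counted once, barcodes with further chains (379 and 870) were left out, no other step removed doublets, and classes were compared by a two-sided exact test stratified by round, with Benjamini-Hochberg adjustment (Python 3.11.15, scipy 1.17.1); edgeR 4.0.16 was the other tool. Gene positions are from GENCODE M21 (GRCm38). Named are the called segments, the 10 TRAV and 10 TRAJ segments most used by clones of 1 cell, the 5 largest differences of each kind in each direction, the segments of the 5 largest clones of each library, and listed segments of invariant receptors, of IGRP-reactive receptors and of a tetramer-negative set named by the study. Members and lists were chosen with earlier results of these data known. Alternatives changed the clone size, barcode filter, clone definition, test, block and minimum count.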

Additional observations from a re-analysis of the deposited data

Results flagged for a closer look

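Cells with a TRB contig but no TRA contig were not used in the comparison of clones, yet their scRNA-seq held Trav UMIs. A Trav group was marked here where the exact 95% interval of its share of the Trav UMIs of these cells lay wholly above the interval in cells with both contigs. UMIs of the same cell or clone are not independent, so these intervals cover counting error only. In Round 1 these were Trav3-3 with 22.0% of Trav UMIs (4.33% in cells with both contigs), Trav7-3 with 6.34%, Trav9-1 with 6.02% (4.36%), Trav2 with 4.89% (1.92%), Trav8-1 with 3.22%, Trav3-1 with 2.53% and Trav12-2 with 2.15%. In Round 2 they were Trav2 with 13.1% (2.51%), Trav3-3 with 10.7% (6.86%), Trav9-1 with 7.63% (2.33%), Trav14-1 with 2.69%, Trav6-2 with 2.24% and Trav13-3 with 2.06%. Trav2, Trav3-3 and Trav9-1 were thus marked in both rounds. These differences were not tested, and the cause was not tested.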

How the results depend on the processing

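The 3 calls of TRAV9-1, TRAJ18 and TRAV3-3 were kept only with both rounds and only with clones of under 5 cells included. Segments called numbered 0 with expanded clones of 5 or more cells, and leaving out either round gave 0 at lowest and 0 at highest. In 3 alternatives chosen after the data were seen, sizing clones by all barcodes with the same β CDR3 gave 5 (TRAV9-1, TRAJ18, TRAJ6 and TRAV9N-4 higher, TRAJ57 lower), leaving out TRAV3-3 clones gave 1 (TRAV9-1), and leaving out TRAV4 clones gave 2. With β sizing TRAV3-3 had an adjusted p of 0.00735 by the exact test but opposite signs in the rounds. TRAV9-1 was called under 15 of 18 alternatives, TRAJ18 under 13 of 18 and TRAV3-3 under 13 of 16. The cause was not tested.

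Copy groups called went from 2 to 4 with clones of 2 or more cells (adding TRAV2 and TRAV4-3), 0 with 5 or more and 1 without TRAV3-3 clones, and leaving out a round gave 0 to 1. V-J pairs called went from 0 to 3 with clones of 2 or more cells (TRAV16 with TRAJ18, TRAV4-3 with TRAJ18, TRAV9-1 with TRAJ53), 2 with the chain of most UMIs kept and 1 with β sizing, and leaving out a round gave 0 to 1. The cause was not tested.

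The difference in the share of clones with an upstream TRAJ segment passed p < 0.05 by the exact test at -5.54 percentage points within the scRNA-seq limits, -5.57 with the chain of most UMIs, -5.98 with each α CDR3 counted once, -5.27 without single cells sharing a chain, -4.71 with β sizing and -4.90 with TRAJ21 as the border. It was smallest at -2.60 with TRAJ41 as the border (p = 0.332, exact test). Leaving out a round gave -5.64 to -4.68. The cause was not tested.

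Without the round as a block, 3 segments, 2 copy groups and 0 pairs were called and the difference in the share of clones with an upstream TRAJ segment was -5.11 percentage points, past p < 0.05 by Fisher's exact test. The block changed no other call.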

Other observations

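The effector genes were also summed over expanded TRAJ18 and TRAV9-1 clones. In Round 1 the effector list summed to 16355 CPM in expanded TRAJ18 clones and 9980 CPM in expanded TRAV9-1 clones, and in Round 2 to 13692 and 9254 CPM. The Round 1 value of TRAJ18 is largely that of 1 clone, which had 252 of the 299 cells. Without its largest clone, each round gave 11402 and 11701 CPM for all expanded clones. These values were not tested.

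With 2 pools and 1 library of each kind per pool, no test was made over animals. Barcodes without an α contig were left out of clones, and their share differed between rounds. TRAV3-3 was too rare in Round 1 contigs to be compared there. TRAJ segments were not checked in scRNA-seq. Antigens of tetramer-negative clones were not measured, and CDR3 amino acid sequences were not analysed here.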
